A study of Glycine max with 60 samples.

Results

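The 8 genes described here are the soybean homologs of 6 regulators of embryo maturation, and they were taken by gene ID from the deposited count and RPKM tables. They are 8 of 56044 genes in the table, and all 8 were among the 40517 genes that passed the filter on low counts. Glyma.08G357600 and Glyma.18G176100 are homologs of ABI3. Glyma.07G268100 and Glyma.17G005600 are annotated as LEC1-A and LEC1-B by their protein match, while their best Arabidopsis match is NF-YB6, the LEC1-like gene. Glyma.16G050500 was taken as a FUS3 homolog, but the deposited annotation gives it no entry, and it is called by its ID below. Glyma.13G153200 is a homolog of ABI5, Glyma.02G131700 of ABF1 and Glyma.08G297000 of WRI1, and they are called ABI5, ABF1 and WRI1 below. Genome positions were not used here.

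RNA was sequenced from whole developing seeds, which hold embryo, endosperm and seed coat together. The seeds came from 4 soybean lines at 5 stages of seed length (S1, 2-4 mm, S2, 4-6 mm, S3, 6-8 mm, S4, 8-10 mm, and S5, 10-12 mm), with 3 libraries for each line and stage. The low phytic acid line 3mlpa carries mutations in MIPS1, MRP-L and MRP-N (mips1/mrp-l/mrp-n). Its non-mutant line 3MWT came from the same cross of CX-1834 with V99-5089. The line 1mlpa carries mips1 alone, and 1MWT is its near-isogenic non-mutant line from Essex and V99-5089. As 3mlpa and 3MWT are recombinant inbred lines, the effect of their 3 mutations and of other loci that differ between them cannot be told apart, and their libraries are labelled as re-analysed from earlier work, so that differences between the pairs and between sequencing efforts cannot be told apart either.

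In Arabidopsis, seed maturation is controlled by a small network of transcription factors. LEC1 is a subunit of the NF-Y complex that binds CCAAT boxes, ABI3 and FUS3 are B3-domain factors, and ABI5 and ABF1 are bZIP factors that bind abscisic acid response elements. WRI1 is an AP2-type factor that turns on genes of glycolysis and fatty acid synthesis, and the network as a whole is known for the switch from embryo growth to the deposition of storage protein and oil.

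The libraries held 17359192 to 42800413 counted reads, with a median of 25314824. In each library the leading 10 genes held 23 to 32.9% of all reads at S5 and 2.12 to 5.62% at S1, and the scaling factors (TMM) lay between 0.593 and 0.764 at S5 and between 1.18 and 1.34 at S1. RPKM is scaled by the total count alone, so that the same TMM-scaled level stands at a lower RPKM in late stages than in early ones. Pooled over S1 to S5, the RPKM ranges of the 3 mutated genes overlapped between mutant and non-mutant lines. Over 15 libraries each, MIPS1 (Glyma.11G238800, an inositol phosphate synthase) ranged from 268 to 1694 RPKM in 3mlpa, 303 to 1581 RPKM in 3MWT, 278 to 1788 RPKM in 1mlpa and 325 to 1597 RPKM in 1MWT. In the same order of lines, the median was 13, 10.8, 13.2 and 13.7 RPKM for MRP-L and 9.27, 10.7, 12.7 and 11 RPKM for MRP-N. As these ranges span the change with stage, they cannot show whether the lines differ at a stage. Endosperm markers and most seed coat markers were called lower at S5 than at S1 in the 4 lines (3 of 3 and 7 or 8 of 12, beside 16 to 20% of all tested genes), while 2 or 3 of the 12 seed coat markers were called higher. In whole seeds, fewer cells of a type and less RNA per cell cannot be told apart.

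Of the 8 genes, 6 rose in the first step of seed growth in 3 of the 4 lines. Between S2 and S1, 22 of 32 tests of a gene in a line were called (adjusted p under 0.01 and a log2 fold change beyond 1 in edgeR's quasi-likelihood test), 20 of them higher and 2 lower at S2. Of all tested genes, 3.3% were called higher in 3mlpa, 4.67% for 3MWT, 4.77% for 1mlpa and 1.37% for 1MWT in that step, and 1.28, 4.56, 3.79 and 0.37% were called lower. Both ABI3 genes, both LEC1 genes, ABI5 and WRI1 rose in 3mlpa, 3MWT and 1mlpa. In 1MWT only ABI5 and WRI1 passed. The later steps added few calls, with 3 of 32 for S3 against S2 (all higher, beside 2.3, 1.98, 0.109 and 0% of all genes in 3mlpa, 3MWT, 1mlpa and 1MWT), 1 of 32 for S4 against S3 (lower, beside 1.13, 0.462, 3.15 and 1.34%) and 1 of 32 for S5 against S4 (lower, beside 2.09, 0.328, 2.71 and 5.25%). Between S5 and S1, 23 of 32 were called, 19 higher and 4 lower, beside shares of all tested genes called higher of 12.9, 13.3, 13 and 12.6% and called lower of 19.3, 16, 18.8 and 20% in 3mlpa, 3MWT, 1mlpa and 1MWT. The median over the 8 genes was 1.92, 2.02, 2.19 and 1.61 on the log2 scale for S5 over S1 in 3mlpa, 3MWT, 1mlpa and 1MWT, and that of all tested genes was -0.05, -0.05, -0.04 and -0.04.

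**Figure D1:**
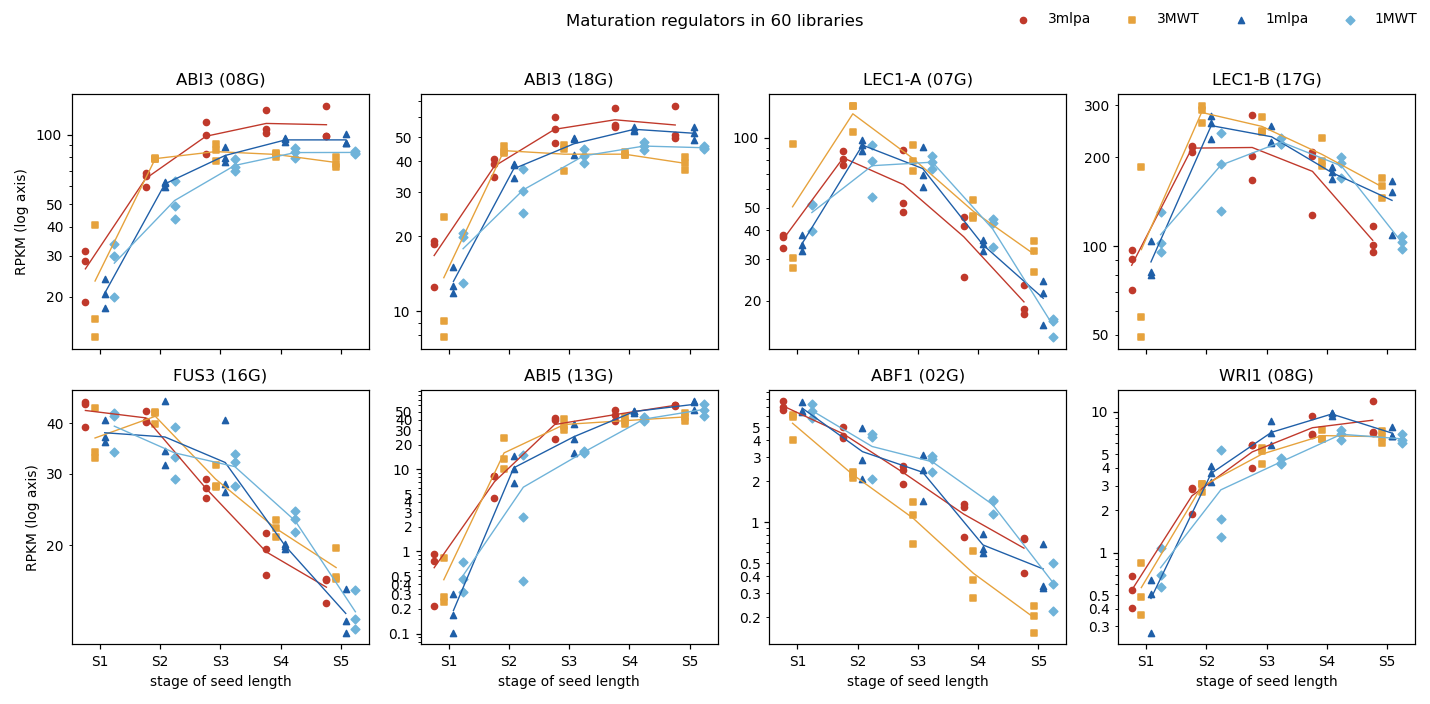
RPKM (log axis) of the 8 genes in each of the 60 libraries by stage of seed length, with 1 point per library, 1 colour and marker per line, and curves through the group means; FUS3 (16G) stands for Glyma.16G050500. ABI5 spans 0.103 to 66.9 RPKM and WRI1 0.271 to 11.9 RPKM, both low at S1, whereas ABF1 is highest at S1 and Glyma.16G050500 stays between 12.2 and 45.3 RPKM.

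The LEC1 genes, which encode the NF-YB subunit, peaked at different stages. In group means of TMM-scaled CPM, LEC1-A peaked at S2 in 3mlpa, 3MWT and 1mlpa and at S3 in 1MWT, and LEC1-B at S3 in 3MWT and at S4 in the other lines. In RPKM the peak of LEC1-B was earlier, at S2 in 3MWT and 1mlpa and at S3 in 3mlpa and 1MWT. LEC1-A had 27.5 to 93.6 RPKM over the 12 libraries of S1 (median 37.8), 55.4 to 137 RPKM at S2 (median 90.2), 47.9 to 92.6 RPKM at S3 (median 76.1), 25.2 to 54.0 RPKM at S4 (median 42.5) and 14.0 to 36.1 RPKM at S5 (median 19.9). In RPKM the libraries of S5 lay below those of S2 without overlap, but in TMM-scaled CPM those of 3MWT at S5 (45.1 to 62.2) overlapped those of 1MWT at S2 (51.5 to 90.7). LEC1-B had the higher level per length, with 49.1 to 185 RPKM at S1 (median 92.9), 131 to 300 RPKM at S2 (median 237), 168 to 279 RPKM at S3 (median 229), 128 to 233 RPKM at S4 (median 189) and 95.5 to 170 RPKM at S5 (median 113).

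In the first step LEC1-A rose by a log2 fold change of 1.23 ± 0.23 in 3mlpa, 1.4 ± 0.23 in 3MWT and 1.44 ± 0.23 in 1mlpa (SE, edgeR adjusted p 1.7e-04, 9.6e-06 and 8.0e-06). LEC1-B rose by 1.38 ± 0.24, 1.62 ± 0.24 and 1.57 ± 0.24 in these lines (edgeR adjusted p 4.8e-05, 1.4e-06 and 2.7e-06). In 1MWT the changes were 0.71 for LEC1-A (edgeR adjusted p 0.042) and 0.83 for LEC1-B (edgeR adjusted p 0.020), both short of the call. One library stood apart at S1, as 3MWT replicate 2 had 93.6 RPKM of LEC1-A against 30.3 and 27.5 RPKM in the other replicates, and 185 RPKM of LEC1-B against 57.5 and 49.1 RPKM.

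Over the whole course the LEC1 genes parted. LEC1-B was called higher at S5 than at S1 in 3mlpa (1.19 ± 0.24), 3MWT (1.62 ± 0.24) and 1mlpa (1.55 ± 0.24, log2 fold change with SE), and had 0.90 ± 0.24 in 1MWT. LEC1-A had log2 fold changes of 0.02, 0.24, 0.07 and -0.62 in 3mlpa, 3MWT, 1mlpa and 1MWT, none of them called. These directions rest on the scaling, since scaling by the total count moved the median of all genes to between -1.02 and -0.901 for S5 over S1. With that scaling LEC1-A had log2 fold changes of -0.89, -0.67, -0.78 and -1.61, called in 1MWT, and LEC1-B had 0.28, 0.71, 0.69 and -0.08, with no call.

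The ratio of the LEC1 copies within a library does not depend on scaling. LEC1-A had 0.189, 0.199, 0.144 and 0.152 of the RPKM of LEC1-B at S5 in 3mlpa, 3MWT, 1mlpa and 1MWT, against 0.428, 0.531, 0.401 and 0.438 at S1. The mean log2 ratio was -2.56 at S5 and -1.16 at S1, a difference of -1.4 in the same direction in 4 of 4 lines (exact permutation test, two-sided, p = 1.25e-05, the smallest it can give, adjusted p 3.75e-05 over 6 tests). The ratio was also lower in 3mlpa than in 3MWT, with means of -1.82 and -1.63 on the log2 scale and a difference of -0.19 in the same direction at 5 of 5 stages (exact permutation p = 8e-05, adjusted p 0.00016). It was lower in 1mlpa than in 1MWT, with means of -1.92 and -1.79 and a difference of -0.14 at 5 of 5 stages (exact permutation p = 0.001924, adjusted p 0.002886). Reads that fit both copies may have been split or dropped in the counting, and how these were treated is not given in the sources used here.

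**Figure D2:**
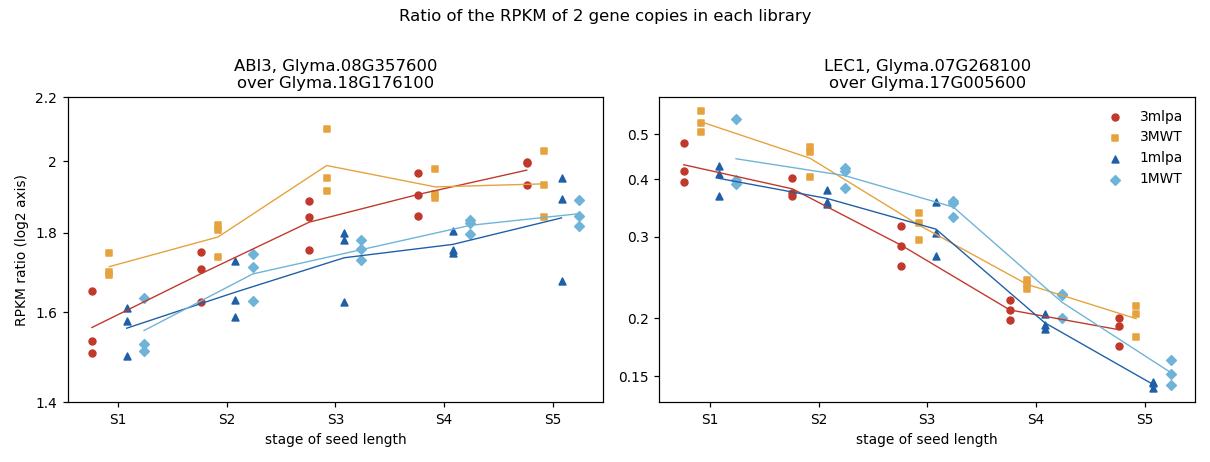
RPKM of 1 gene copy over the other (log2 axis) in each library by stage, for the ABI3 genes and the LEC1 genes, with 1 point per library, 1 colour and marker per line, and curves through the group means. The LEC1-A over LEC1-B ratio in 3mlpa and 3MWT is 0.189 and 0.199 at S5, against 0.428 and 0.531 at S1, while the ABI3 ratio stays between group means of 1.56 and 1.99.

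The ABI3 genes, which encode B3-domain factors of the seed response to abscisic acid, rose in the first step and stood higher still at S5. In TMM-scaled CPM, Glyma.08G357600 averaged 560, 398, 479 and 467 at S5 in 3mlpa, 3MWT, 1mlpa and 1MWT, against 183, 233, 174 and 150 at S2. The libraries of S5 and S2 did not overlap in any line, although no later step between neighbouring stages was called. For this and every other statement on overlap between stages, the share of all tested genes is not given here. In RPKM the gain after S2 was smaller, and the mean of 3MWT was not higher at S5 than at S2. Glyma.08G357600 had 66.3, 59.2 and 68.6 RPKM at S2 in 3mlpa, against 28.6, 18.9 and 31.6 RPKM at S1. In 1mlpa it had 62.0, 59.4 and 62.8 RPKM at S2, against 20.4, 17.8 and 23.7 RPKM at S1. In both lines the stages did not overlap. In 3MWT it had 78.6, 79.7 and 78.5 RPKM at S2, against 16.1, 40.6 and 13.4 RPKM at S1, with replicate 2 of S1 again the high one. In 1MWT it had 43.1, 49.4 and 63.5 RPKM at S2, against 33.9, 19.8 and 29.9 RPKM at S1. The log2 fold changes were 1.36 ± 0.22, 1.83 ± 0.23 and 1.60 ± 0.22 in 3mlpa, 3MWT and 1mlpa (edgeR adjusted p 2.3e-05, 7.0e-08 and 6.2e-07). In 1MWT the log2 fold change of 0.94 ± 0.22 (edgeR adjusted p 0.0052) fell short of the limit on the fold.

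Glyma.18G176100 followed it with a lower level per length, 7.88 to 66.9 RPKM over the 60 libraries against 13.4 to 134 RPKM for Glyma.08G357600. It rose by 1.26, 1.77 and 1.53 on the log2 scale in the first step in 3mlpa, 3MWT and 1mlpa, and had 0.82 in 1MWT (edgeR adjusted p 0.0103). Both genes were called higher at S5 than at S1 in 4 of 4 lines, by 2.98, 2.6, 3.06 and 2.57 on the log2 scale for Glyma.08G357600 and by 2.65, 2.43, 2.84 and 2.33 for Glyma.18G176100. The first gene gained on the second, with 1.97, 1.93, 1.84 and 1.85 times its RPKM at S5 in 3mlpa, 3MWT, 1mlpa and 1MWT, against 1.56, 1.71, 1.56 and 1.56 times at S1. The mean log2 ratio was 0.92 at S5 and 0.68 at S1 (difference 0.25 in 4 of 4 lines, exact permutation p = 1.25e-05, the smallest possible, adjusted p 3.75e-05). It was 0.84 in 3mlpa and 0.90 in 3MWT, a difference of -0.06 in the same direction at 4 of 5 stages (exact permutation p = 0.006679, adjusted p 0.008015), but without replicate 1 of every group the difference was -0.03 (exact permutation p = 0.2518). Between 1mlpa and 1MWT it was -0.02 (exact permutation p = 0.3066).

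Glyma.16G050500 changed least of the 8 genes. It had 32.8 to 45.1 RPKM at S1 (median 40.02), 29.1 to 45.3 RPKM at S2 (median 40.1), 26.1 to 40.7 RPKM at S3 (median 28.2), 16.8 to 24.3 RPKM at S4 (median 21.2) and 12.2 to 19.6 RPKM at S5 (median 15.6). The highest group mean of its TMM-scaled CPM was 1.8 times the lowest. No stage comparison was called, and for S5 over S1 the log2 fold changes were -0.54, -0.19, -0.62 and -0.54 in 3mlpa, 3MWT, 1mlpa and 1MWT. With the total count as the scaling they were -1.45, -1.06, -1.48 and -1.52, and it was called lower in 4 of 4 lines. Both annotated FUS3 matches had another course. Glyma.16G050300 was called higher at S2 than at S1 in 3mlpa (1.05), 3MWT (1.23) and 1mlpa (1.31, log2 fold change) and higher at S5 than at S1 in 4 of 4 lines (1.39, 1.21, 1.87 and 1.4). Glyma.19G100900 was called higher at S2 than at S1 in 3MWT (1.01) and 1mlpa (1.11) and had 0.98 in 3mlpa and 0.48 in 1MWT, and for S5 over S1 it had 0.95, 0.63, 1.21 and 0.81, called in 1mlpa alone.

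ABI5, a bZIP factor that acts with ABI3 in abscisic acid signaling of Arabidopsis seeds, had the widest range. At S5 it had 60.5, 59.1 and 60.3 RPKM in 3mlpa, 38.3, 42.8 and 48.8 RPKM in 3MWT, 66.9, 53.3 and 64.9 RPKM in 1mlpa and 52.5, 45.1 and 63.0 RPKM in 1MWT. At S1 it had only 5 to 54 reads in a library, with 0.758, 0.214 and 0.930 RPKM in 3mlpa, 0.280, 0.837 and 0.243 RPKM in 3MWT, 0.103, 0.303 and 0.168 RPKM in 1mlpa and 0.740, 0.465 and 0.324 RPKM in 1MWT. Every library of S5 lay above every library of S1.

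For S5 over S1 the log2 fold change of ABI5 was 7.46 ± 0.66 in 3mlpa and 7.50 ± 0.68 in its non-mutant line 3MWT, and 9.15 ± 0.74 in 1mlpa and 7.70 ± 0.68 in its non-mutant line 1MWT (SE, edgeR adjusted p 4.0e-13, 1.2e-12, 4.5e-14 and 4.5e-13). The first step gave 3.53, 5.22, 5.76 and 3.63 in the same lines. In 3mlpa a second step, S3 against S2, was called as well (2.58 ± 0.50, edgeR adjusted p 3.6e-04). In 1MWT the replicates of S2 were far apart, with 0.436, 2.65 and 15.1 RPKM, against 0.740, 0.465 and 0.324 RPKM at S1, so that the stages overlapped. Without the third replicate of S2 the step in 1MWT was 1.59 (edgeR adjusted p 0.23) and was no longer called. In 1MWT the summed storage protein and oil body genes ran from 289 to 10268.5 CPM at S2, with 1168 CPM in the middle library. At S1 they ran from 258 to 362 CPM. The summed level of 3 endosperm markers, most of it ALE1 (Glyma.07G263500), ran from 11.7 to 41.7 CPM at S2, against 24.1 to 47.3 CPM at S1. The part of these markers in the result was not tested.

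The WRI1 matches differed widely in level. Glyma.08G227700 had a median of 1122, 973, 966 and 859 reads in a library in 3mlpa, 3MWT, 1mlpa and 1MWT. Glyma.15G221600 had 627, 593, 595 and 600 reads, and a further match only 7, 4, 7 and 5 reads. The gene called WRI1 here, Glyma.08G297000, had a low level throughout. At S1 it had 11 to 32 reads in a library and 0.271 to 1.08 RPKM. At S2 it had 2.86, 2.85 and 1.89 RPKM in 3mlpa, 3.09, 3.08 and 2.68 RPKM in 3MWT, 3.16, 3.67 and 4.15 RPKM in 1mlpa and 1.30, 1.73 and 5.35 RPKM in 1MWT. All 12 libraries of S2 lay above all libraries of S1. At S5 it had 7.10, 7.23 and 11.9 RPKM in 3mlpa, 6.05, 6.61 and 7.34 RPKM in 3MWT, 6.77, 7.75 and 6.68 RPKM in 1mlpa and 6.01, 6.32 and 6.99 RPKM in 1MWT.

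The first step of WRI1 was 2.28 ± 0.35, 2.45 ± 0.36, 2.99 ± 0.36 and 1.89 ± 0.35 on the log2 scale in 3mlpa, 3MWT, 1mlpa and 1MWT (SE), called in 4 of 4 lines. Without the third S2 replicate it was 0.98 in 1MWT (edgeR adjusted p 0.17). A second step, S3 against S2, was called in 3mlpa (1.29 ± 0.29) and in 3MWT (1.15 ± 0.29). S5 over S1 was called in 4 of 4 lines, at 4.91, 4.46, 4.76 and 4.03. The WRI1 match Glyma.08G227700 had a smaller change, 1.29, 1.59, 1.75 and 1.07 in the first step and 1.96, 1.62, 1.79 and 1.34 for S5 over S1, all called.

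ABF1, a bZIP factor of the abscisic acid response, was the only gene of the 8 that was called lower with stage. It had 4.03 to 7.72 RPKM over the 12 libraries of S1 (median 6.56) and 2.08 to 4.98 RPKM at S2 (median 3.51). At S5 it had 0.747, 0.765 and 0.423 RPKM in 3mlpa, 0.154, 0.242 and 0.204 RPKM in 3MWT, 0.330, 0.692 and 0.339 RPKM in 1mlpa and 0.224, 0.505 and 0.354 RPKM in 1MWT, from only 8 to 43 reads in a library. The log2 fold change of S5 over S1 was -2.57 ± 0.28, -3.87 ± 0.33, -3.05 ± 0.30 and -3.25 ± 0.30 in 3mlpa, 3MWT, 1mlpa and 1MWT (SE), called in 4 of 4 lines. The first step was called in 3MWT (-1.23 ± 0.26) and in 1mlpa (-1.03 ± 0.25), where 3 of 6 fits with a library left out lost the call, and single later steps were called in 1mlpa (S4 over S3, -1.25) and in 1MWT (S5 over S4, -1.38). The other ABF1 match, Glyma.07G213100, was called lower at S5 than at S1 in the 4 lines as well, with log2 fold changes of -2.77, -3.12, -3.47 and -3.61.

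The comparison of mutant with non-mutant asks whether the mutations go with other levels of these regulators. ABF1 was called higher in 3mlpa than in 3MWT at S4 and S5. At S2 ABF1 had 4.13, 4.28 and 4.98 RPKM in 3mlpa, against 2.32, 2.13 and 2.26 RPKM in 3MWT. At S3 it had 1.92, 2.6 and 2.41 RPKM in 3mlpa, against 1.4, 1.12 and 0.691 RPKM in 3MWT. At S4 it had 1.30, 1.36 and 0.778 RPKM in 3mlpa, against 0.615, 0.373 and 0.277 RPKM in 3MWT. With the values of S5 and S1 (6.67, 7.72 and 7.07 RPKM in 3mlpa, against 6.09, 4.03 and 5.89 RPKM in 3MWT at S1), the libraries of the lines did not overlap at any of the 5 stages. Such a separation was common between these lines, with 39.8, 49.3, 36.2, 31.2 and 36% of all tested genes at S1 to S5.

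The log2 fold change of ABF1 in 3mlpa over 3MWT was 0.32 ± 0.25, 0.93 ± 0.25, 0.96 ± 0.27, 1.26 ± 0.32 and 1.61 ± 0.37 at S1 to S5 (SE, edgeR adjusted p 0.35, 0.0070, 0.0084, 0.0054 and 0.0014). S4 and S5 were called, and these were the only 2 calls in 40 tests of the 8 genes between 3mlpa and 3MWT. Of all tested genes, 4.59, 3.38, 3.22, 1.07 and 1.69% were called higher in 3mlpa at S1 to S5. Averaged over the 5 stages, ABF1 was higher by 1.02 ± 0.13 (edgeR adjusted p 1.9e-08), the only call in 16 such tests, beside 4.71% of all genes called higher in 3mlpa and 0.0074% in 1mlpa. A fit of the compared libraries alone called neither stage, with 1.28 at S4 (edgeR adjusted p 0.050) and 1.64 at S5 (edgeR adjusted p 0.024). The call at S4 was lost without any of 4 single libraries (3mlpa replicate 1 or 2, 3MWT replicate 2 or 3) and that at S5 without 3MWT replicate 1, while the fold change stayed at 1.07 or more.

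Markers of other tissues differed between these lines at some stages. Most of the summed level of 3 endosperm markers was ALE1 (Glyma.07G263500), with means at S1 of 23.6 CPM in 3mlpa and 34.5 CPM in 3MWT. The sum was 19.4 to 35.4 CPM at S1 in 3mlpa, against 28.4 to 51.7 CPM in 3MWT. At S2 it was 20.4 to 22.8 CPM in 3mlpa, against 9.04 to 14.1 CPM in 3MWT, and at S3 8.79 to 12.9 CPM in 3mlpa, against 4.74 to 7.31 CPM in 3MWT. At S4 the sum was 3.75 to 9.29 CPM in 3mlpa, against 3.26 to 5.83 CPM in 3MWT. At S5 it was 2.24 to 7.34 CPM in 3mlpa, against 3.15 to 3.68 CPM in 3MWT. The lines overlapped at S4 and S5, which with 3 libraries each does not show that their make-up was the same. The summed seed coat markers were higher in 3mlpa at S2 (805 to 891 CPM, against 480 to 585 CPM in 3MWT), overlapped at S1, S3 and S4 (121 to 562 CPM at S4 in 3mlpa, against 309 to 348 CPM in 3MWT) and were lower in 3mlpa at S5 (109 to 129 CPM, against 146 to 163 CPM in 3MWT). The summed storage protein and oil body genes had 2624, 63366 and 94998 CPM in the middle library at S2, S3 and S4 in 3mlpa. In 3MWT they had 5925, 93956 and 176869 CPM. At S1 and S5 the middle library had 207 and 275728 CPM in 3mlpa, against 202 and 282841 CPM in 3MWT. The ranges of the lines overlapped at every stage. The part of all these markers in the result was not tested.

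LEC1-A was lower in 3mlpa than in 3MWT by less than the limit on the fold. At S5 it had 17.5, 23.4 and 18.3 RPKM in 3mlpa, against 36.1, 32.5 and 26.6 RPKM in 3MWT. At S2 it had 87.8, 81.1 and 76.6 RPKM in 3mlpa, against 106, 136 and 137 RPKM in 3MWT. The lines did not overlap in TMM-scaled CPM from S2 to S5, as was so for 49.3, 36.2, 31.2 and 36% of all tested genes. The log2 fold changes of LEC1-A were -0.52, -0.69, -0.56, -0.55 and -0.74 at S1 to S5. The direction at S1 rests on 3MWT replicate 2, which had 82.6 CPM against 27.3 and 28.8 CPM in the other replicates, while 3mlpa had 29.7 to 34.1 CPM. With this library and 2 libraries of 1MWT S2 left out, LEC1-A (Glyma.07G268100) had 0.19 at S1 (edgeR adjusted p 0.42) and LEC1-B (Glyma.17G005600) had 0.55 (edgeR adjusted p 0.0092), against -0.23 with all libraries. The mean over the stages was -0.61 ± 0.10 for LEC1-A, -0.43 ± 0.10 for LEC1-B and -0.15 ± 0.05 for Glyma.16G050500 (SE, edgeR adjusted p 3.2e-06, 5.8e-04 and 0.0058), and without 3MWT S1 replicate 2 it was -0.46 for LEC1-A and -0.27 for LEC1-B. For the ABI3 genes, ABI5 and WRI1 the means were 0.12, 0.18, -0.08 and -0.03, with 95% intervals of -0.07 to 0.32, -0.01 to 0.37, -0.58 to 0.41 and -0.31 to 0.25.

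Between 1mlpa and 1MWT none of 40 tests was called by edgeR, at 0.289, 0, 0.00247, 0.074 and 0% of all genes called at S1 to S5. In edgeR 6 of the 40 had an unadjusted p under 0.05, and DESeq2 called 0 of 40 as well. The means over the 5 stages lay between -0.16 and 0.23 on the log2 scale, the widest 95% interval being that of ABI5, -0.41 to 0.70. ABF1 at S4 had 0.815, 0.632 and 0.597 RPKM in 1mlpa, against 1.44, 1.16 and 1.45 RPKM in 1MWT, with a log2 fold change of -0.73 (95% interval -1.32 to -0.15). The lines did not overlap there, as was so for 34.7% of all genes. Without the third S2 replicate of 1MWT, ABI5 and WRI1 were called higher in 1mlpa at S2, by 2.82 and 1.30 (edgeR adjusted p 0.0016 and 0.0067).

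The line effect of ABF1 differed between the pairs at S4. The effect in 3mlpa over 3MWT minus that in 1mlpa over 1MWT was 2.00 ± 0.43 on the log2 scale (edgeR adjusted p 0.0019), the 1 call in 40 tests, where 5.24, 3.67, 2.19, 1.07 and 0.496% of all genes were called higher at S1 to S5. It was 1.08 at S2 and 1.15 at S3 (edgeR adjusted p 0.027 and 0.030), short of the call. Without 3MWT S4 replicate 3 the difference at S4 was 1.8 (edgeR adjusted p 0.011) and was not called. Summed storage protein and oil body genes at S4 were higher in 1mlpa than in 1MWT and overlapped between 3mlpa and 3MWT. Their part in this difference was not tested. The first stage step did not differ by a call between mutant and non-mutant in any of 16 tests of edgeR (0.00247% of all genes called in the triple mutant pair, 0% in the other), of which 6 had an unadjusted p under 0.05, and DESeq2 called 0 of 16.

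**Figure D3:**
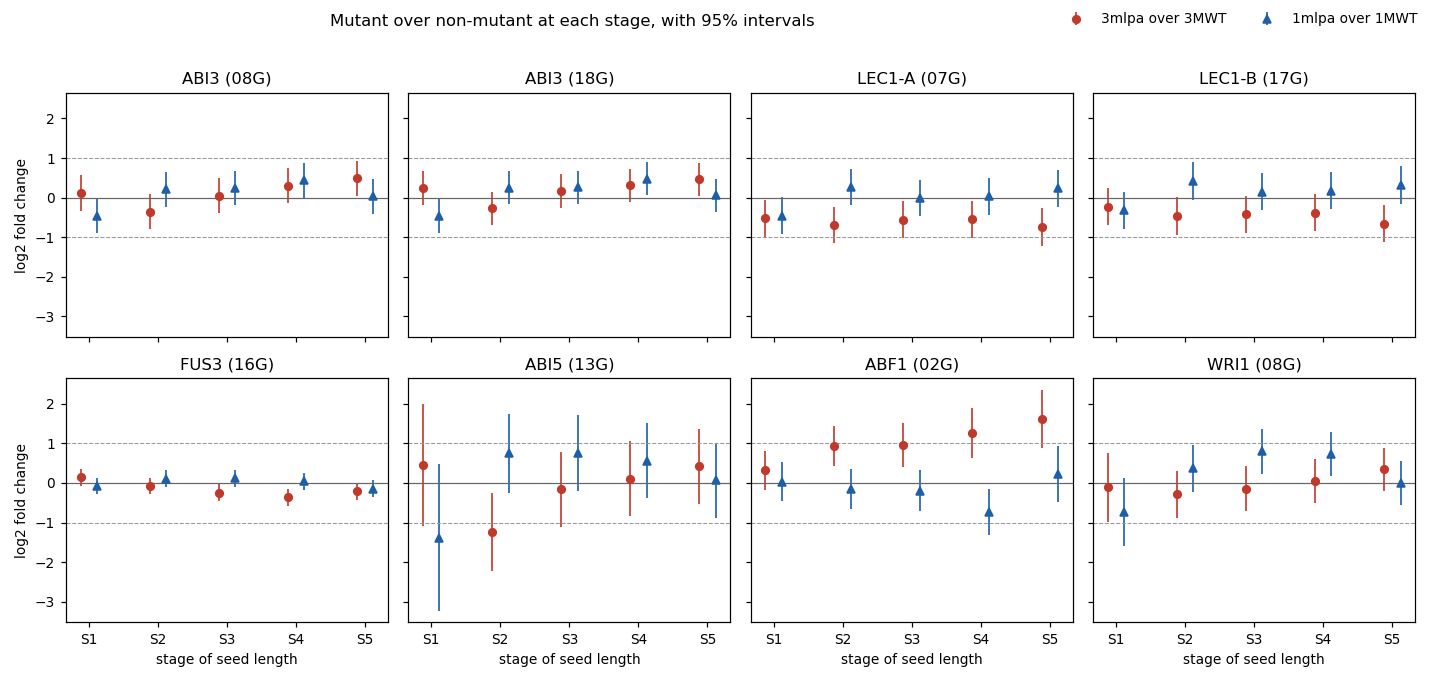
Log2 fold change of mutant over non-mutant with its 95% interval for the 8 genes at each stage, 3mlpa over 3MWT and 1mlpa over 1MWT in different colours and markers, with the limit of 1 on the fold change dashed. ABF1 in 3mlpa over 3MWT stands at 0.32 at S1 and at 1.61 at S5, while in 1mlpa over 1MWT it is -0.73 at S4, and LEC1-A is below 0 at the 5 stages in 3mlpa over 3MWT, at S1 only with 3MWT replicate 2 included.

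Ordered by TMM-scaled CPM over the 20 line and stage groups, the genes spanned very different ranges. The highest group was 594 times the lowest for ABI5 (1mlpa S5 over 1mlpa S1), 34 times for WRI1 and 18.4 times for ABF1 (3mlpa S1 over 3MWT S5). It was 9.76 and 7.75 times for the ABI3 genes, and 4.27 and 4.18 times for LEC1-A and LEC1-B. Neighbours in this order mostly overlapped in their libraries, in 14 to 19 of 19 cases, with 14 for Glyma.08G357600 and 19 for Glyma.16G050500. Sorting by the mean puts the closest groups side by side, so this count does not show whether groups differ.

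The course of each gene over the 20 groups was set beside that of 28543 expressed genes. These correlations describe means that share stages and library scaling, and carry no test. The ABI3 genes were most like each other (Pearson r 0.998). ABI5 was most like Glyma.11G015100 (AtHSD5, a steroleosin of oil bodies), Glyma.10G028300 (a sucrose-binding protein of the storage globulin family) and Glyma.18G242100 (seipin, a protein of oil droplet formation), each at r 0.998. WRI1 was most like Glyma.09G256300 (r 0.995), Glyma.18G187600 and Glyma.20G233000 (the seed maturation protein PM34, r 0.993 each). LEC1-B was most like Glyma.05G141600 (r 0.985), Glyma.09G154700 (LHCB5, a light harvesting protein, r 0.980) and Glyma.14G023000 (geranylgeranyl reductase, r 0.976), and LEC1-A like Glyma.02G282400, Glyma.17G012300 (sks4) and Glyma.05G103400 (a GRAS factor), at r 0.966, 0.964 and 0.963. ABF1 was most like Glyma.18G044000 (an RCC1 family protein, r 0.988), Glyma.20G028000 (r 0.982) and Glyma.19G162800 (r 0.974). Glyma.16G050500 was most like Glyma.03G178700, Glyma.11G092000 and Glyma.01G186100, at r 0.959, 0.956 and 0.945. Some of these ranks rest on the scale, since with log2(RPKM + 1) the matches of Glyma.16G050500 ranked 202, 127 and 56, Glyma.02G282400 ranked 147 for LEC1-A, Glyma.19G162800 ranked 82 for ABF1 and Glyma.09G256300 ranked 68 for WRI1.

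Genes that these factors are known to act on, and separately genes of abscisic acid signaling, were taken as lists by their Arabidopsis match. The deposited annotation is nearly confined to genes the study itself had called, so the lists are not independent evidence of a direction. For S5 over S1, 22 or 23 of 23 storage protein and oil body genes were called higher in each line, with median log2 fold changes of 9.33, 9.08, 11.83 and 9.06 in 3mlpa, 3MWT, 1mlpa and 1MWT. The beta-conglycinin gene Glyma.10G246300 had a median of 32.2 RPKM over the 12 libraries of S1, 676 RPKM at S2, 5379 RPKM at S3, 11318 RPKM at S4 and 14315 RPKM at S5. The oleosin gene Glyma.19G063400, which coats oil bodies, had 27.6, 620, 1761, 2388 and 2430 RPKM. Of 18 late maturation genes, 15, 13, 16 and 16 were called higher, among them PM30 (Glyma.13G363300), with a median of 1722 RPKM at S5 and 46.1 RPKM at S1. Of 17 fatty acid synthesis genes, 15, 14, 14 and 13 were called higher, with medians of 1.88, 1.67, 1.48 and 1.45. Of 8 genes of abscisic acid signaling, 4 of them matches of the kinase OST1 and the others of the phosphatases ABI1 and PP2CA, 3 were called higher in 3MWT and none in the other lines, while 2 were called lower in 3mlpa, 3 in 1mlpa and 1 in 1MWT.

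The mean course of the storage list had a Pearson r of 0.97 with ABI5 and with Glyma.08G357600, 0.76 with LEC1-B, -0.0031 with LEC1-A and -0.93 with ABF1 over the 20 groups. The fatty acid list had r of 0.96 with WRI1, 0.95 with ABI5, 0.93 with both ABI3 genes and 0.89 with LEC1-B, and WRI1 had 0.97 with the storage list. The endosperm list had r of -0.98 with ABI5 and 0.90 with ABF1.

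**Figure D4:**
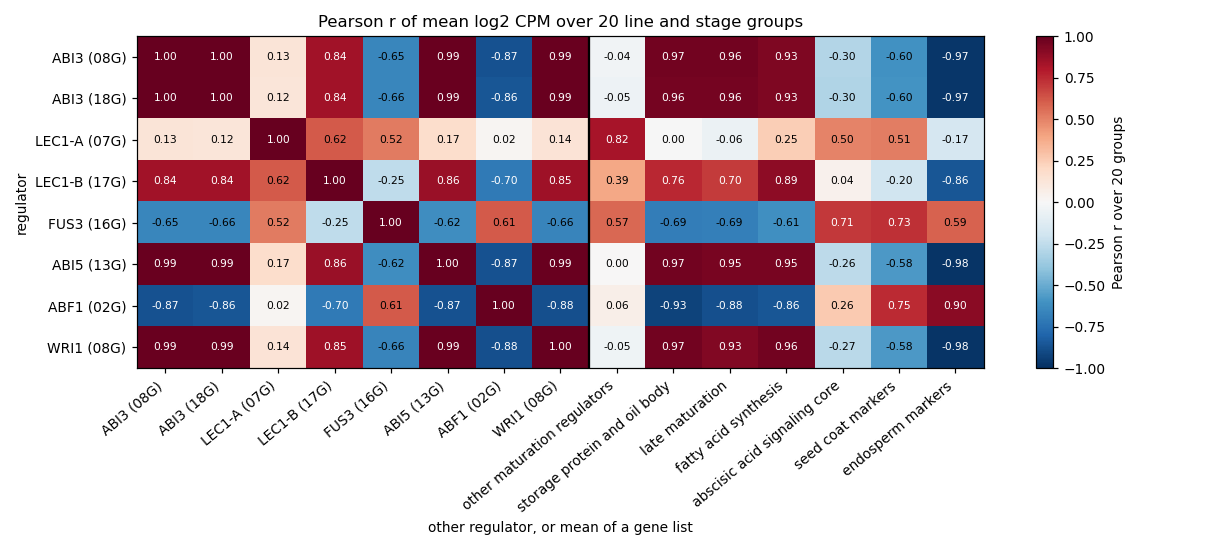
Pearson r of mean log2 CPM over the 20 line and stage groups between the 8 genes (left of the black line) and between each gene and the mean of a gene list (right of it). The ABI3 genes, ABI5 and WRI1 are near 1 with the storage list (0.96 to 0.97), ABF1 is at -0.93 and LEC1-A at -0.0031.

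Of 27 other maturation regulators, 11, 11, 13 and 12 were called higher and 12, 11, 11 and 11 lower at S5 than at S1 in 3mlpa, 3MWT, 1mlpa and 1MWT, beside 12.6 to 13.3% of all tested genes called higher and 16 to 20% called lower. These genes too come from the annotation that is nearly confined to genes the study had called. The second ABI5 match, Glyma.10G071700, was called higher in 4 of 4 lines, by 5.83, 5.47, 6.19 and 6.16 on the log2 scale. The bZIP53 match Glyma.10G013300, a bZIP factor that acts with ABI3 in Arabidopsis, had 79.7 to 141 RPKM at S1 in 3mlpa, against 39.7 to 47.1 RPKM in 3MWT, with a log2 fold change of 1.35 ± 0.23 (SE, edgeR adjusted p 3.3e-05). Of all tested genes, 4.59% were called higher in 3mlpa at S1. The other pair went the other way in reads over all stages. The median was 1017 reads in 1mlpa and 1609 in 1MWT, against 1729 in 3mlpa and 1160 in 3MWT.

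AGL15, a MADS-box factor that in Arabidopsis acts with the LEC genes in embryo development, separated 3MWT from the other lines. The AGL15 match Glyma.04G142500 had 1 read in all 15 libraries of 3mlpa together, with 14 of 15 at 0, against 756 reads and 7 to 142 per library in 3MWT. It had 7 reads in all of 1mlpa and 1 read in all of 1MWT. Mean RPKM in 3MWT was 3.15 ± 3.45, 6.02 ± 0.64, 2.66 ± 0.59, 2.07 ± 0.43 and 1.28 ± 0.41 at S1 to S5 (SD, n = 3 each), and 3mlpa was called lower at 5 of 5 stages. The other AGL15 match, Glyma.U018000, was read in every library of the 4 lines, with group means of 7.92 to 25.1 RPKM.

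**Figure D5:**
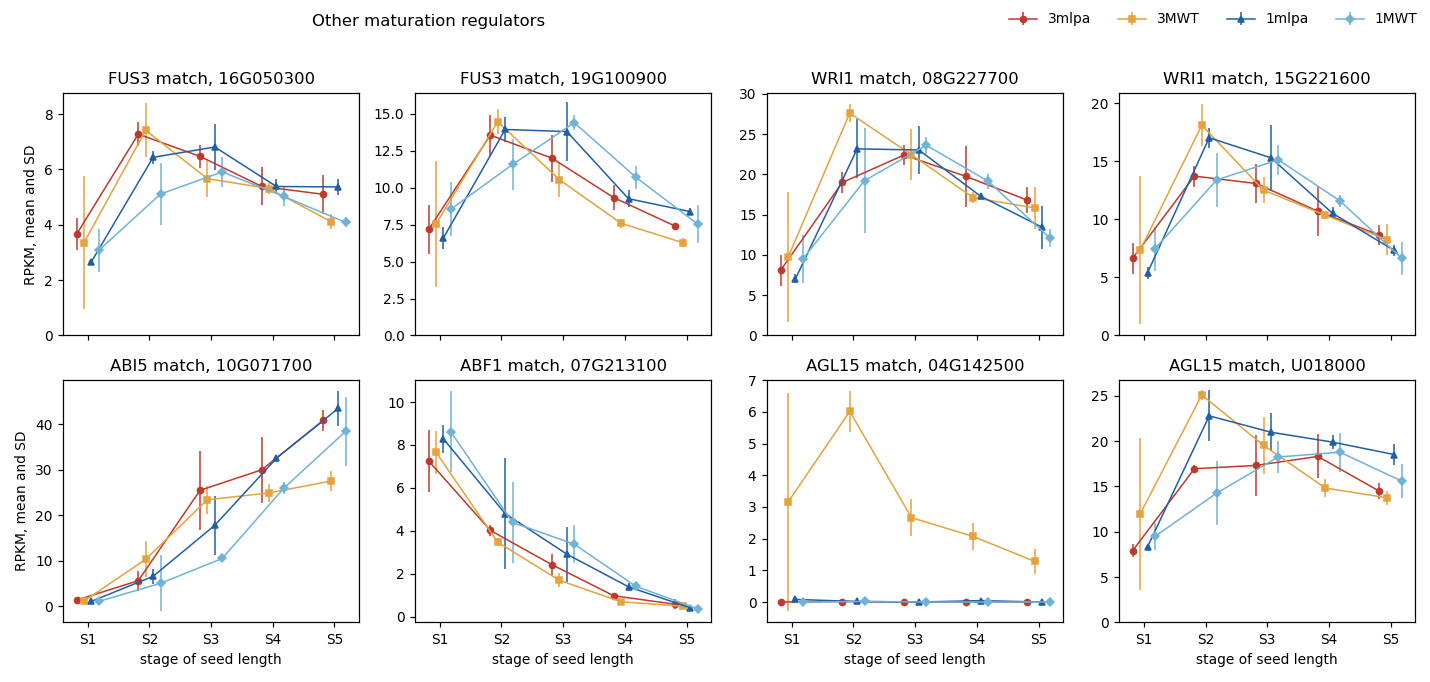
RPKM of 8 further maturation regulators by stage and line, as the mean of 3 libraries with its SD. Glyma.04G142500 is near 0 in 3mlpa, 1mlpa and 1MWT and peaks at 6.02 in 3MWT at S2, whereas Glyma.U018000 is present in all lines, and the ABI5 match Glyma.10G071700 climbs to 40.9 in 3mlpa and 27.5 in 3MWT at S5.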

How the data were processed

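RNA-seq libraries of whole soybean seeds were grouped by line and stage from the sample labels, with 3 libraries per group. No source says that replicates came from separate plants (48 plants per line were grown), so p-values measure only the spread between these samples. The deposited counts are whole reads per gene, which the authors made from 100-base single-end reads with STAR 2.4.2 and featureCounts 1.4.6 on assembly Wm82.a2.v1. Whether strand was used in counting is not given in the sources used here. For RPKM, the authors divided each count by gene length and total count before deposit. The deposited log2 fold changes of the authors' own comparisons (DESeq2 1.8.2, R 3.2.4), their network ranks and their enrichment results were not used.

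Counts were analysed with edgeR 4.0.16 in R 4.3.3 by 1 quasi-likelihood fit over 60 libraries with a mean for each of 20 groups, after TMM scaling and filterByExpr (40517 of 56044 genes). It had 40 residual degrees of freedom. P-values were adjusted by Benjamini-Hochberg across the tested genes within each comparison. A call needed an adjusted p below 0.01 with a log2 fold change beyond 1 in either direction. Interaction contrasts of this fit tested differences of effects. Copy ratios used log2(RPKM + 0.1) and exact permutation within stages or lines. CPM is TMM-scaled. The fit was tested on simulated data. The 8 genes and the gene lists were chosen with earlier results of these data known. Named by rule were the 8 genes, up to 6 other regulators that were called, the 3 genes most like each of the 8, and up to 3 leading genes of a list by mean log2 CPM; Glyma.U018000 and the further genes plotted with it were chosen after their values were seen. Alternatives were RLE factors, no filter, DESeq2 1.42.0 with and without a prior, compared libraries only, a replicate block, single libraries left out and other thresholds. Total-count scaling and leaving out 3 libraries that stood apart were chosen after seeing the data.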

Additional observations from a re-analysis of the deposited data

Results flagged for a closer look

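The effect of the line on ABF1 (Glyma.02G131700) at S4 differed between the pairs, by an interaction test in edgeR's quasi-likelihood fit. The log2 fold change was 1.26 in 3mlpa over 3MWT and -0.73 in 1mlpa over 1MWT, a difference of 2.00 ± 0.43 (SE, adjusted p 0.0019). The counts behind it were 87, 71 and 38 reads in 3mlpa, against 30, 21 and 12 reads in 3MWT, and 46, 30 and 39 reads in 1mlpa, against 71, 58 and 74 reads in 1MWT. The summed storage protein and oil body genes at S4 were 189071 to 212020 CPM in 1mlpa, against 90195 to 121905 CPM in 1MWT. In 3mlpa they were 84590, 94998 and 210219 CPM, against 172421 to 201584 CPM in 3MWT. The mean course of these genes had a Pearson r of -0.93 with ABF1 over the 20 groups. The pairs also differ in parentage and in sequencing effort, and what the difference comes from was not tested.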

How the results depend on the processing

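The numbers of calls among the 8 genes are given here under the settings that moved them beyond 1.5 times, with 2 calls for 3mlpa against 3MWT, 0 for 1mlpa against 1MWT, 22, 3, 1 and 1 for the steps from S2 against S1 to S5 against S4, 23 for S5 against S1, 1 for the mean line effect, 1 for the pair difference and 0 for the step difference as the values reported. At an adjusted p under 0.05 with no fold limit they were 8 for 3mlpa against 3MWT, 8 for S3 against S2, 9 for S4 against S3, 3 for S5 against S4, 4 for the mean line effect and 6 for the pair difference. With the compared libraries alone they were 0 for 3mlpa against 3MWT and 14 for S2 against S1. With total-count scaling, S4 against S3 had 4 and S5 against S4 had 2, and LEC1-B in 1MWT (Glyma.17G005600) turned to -0.085 for S5 over S1. DESeq2 with its prior gave 0 for the mean line effect (ABF1, Glyma.02G131700, 0.96, adjusted p 6.4e-13).

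Without the 3 libraries whose column names carry a suffix (1MWT S2 replicate 3, 1MWT S3 replicate 2 and 1mlpa S2 replicate 1), there were 2 calls for 1mlpa against 1MWT, 6 for S3 against S2, 4 for S4 against S3, 7 for the pair difference and 2 for the step difference. Without 3MWT S1 replicate 2 and 1MWT S2 replicates 1 and 3 there were 7 for S3 against S2, 3 for S4 against S3, 0 for the mean line effect, 4 for the pair difference and 3 for the step difference, with the 1 library left in 1MWT S2 assumed to vary like the other groups. The cause was not tested.

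With single libraries left out, the calls ran from 1 to 3 for 3mlpa against 3MWT, 0 to 2 for 1mlpa against 1MWT, 20 to 24 for S2 against S1, 2 to 5 for S3 against S2, 0 to 3 for S4 against S3, 0 to 1 for S5 against S4, 23 to 24 for S5 against S1, 0 to 1 for the mean line effect, 0 to 6 for the pair difference and 0 to 2 for the step difference. The highest counts of the pair and step differences came without 1MWT S2 replicate 3, where the pair difference at S2 was -4.07 for ABI5 and -1.61 for WRI1. The copy balance without 1 replicate of every group ran from -0.082 to -0.033 for ABI3 in 3mlpa against 3MWT, -0.04 to -0.01 in 1mlpa against 1MWT and 0.23 to 0.26 for S5 against S1, and from -0.20 to -0.18, -0.15 to -0.11 and -1.43 to -1.36 for LEC1.

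Replicate numbers showed no steady pairing of the samples, as 9 of 30 same-numbered pairs had a correlation of deviations over 0.1 (-0.30 to 0.48). Most of these 9 were pairs of 1mlpa and 1MWT, and the correlations do not settle whether samples were paired. With a replicate block the number of calls was 2 for 3mlpa against 3MWT, 0 for 1mlpa against 1MWT, 22 for S2 against S1, 23 for S5 against S1 and 1 for the mean line effect. RLE factors, no filter and DESeq2 without the prior left every number within 1.5 times. The reads of ABI5 and WRI1 at S1 and of ABF1 at S5 limit the precision of their fold changes.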
